A study of Mus musculus with 6 samples.

Results

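The platelet-derived growth factor (PDGF) family is described here in ribosome-bound RNA of mouse lung pericytes. It comprises the 4 ligand genes Pdgfa, Pdgfb, Pdgfc and Pdgfd, the receptor genes Pdgfra and Pdgfrb, and the receptor-like gene Pdgfrl. These 7 genes of the 21603 in each sample were found through the Ensembl identifiers that carry those symbols in the mouse GENCODE annotation, and 1 gene matched each symbol. The samples are 3 control and 3 Yap1,Wwtr1 iPCKO lungs, taken from C57BL/6 mice at P8 after tamoxifen in the first postnatal days. All 6 mice carried the Pdgfrb(BAC)-CreERT2 transgene and 1 floxed copy of Rpl22, whose recombined product is an HA-tagged ribosomal protein. Anti-HA immunoprecipitation therefore enriches RNA from recombined cells (RiboTag). RNA of other cells was also present: the epithelial gene Sftpc had a mean of 363 RPKM in controls and 454 RPKM in iPCKO samples. None of the 6 samples is RNA from before the precipitation, so a value cannot be assigned to pericytes alone. The labels give the controls as Yap1+/-;Wwtr1+/- and the mutants as Yap1-/-;Wwtr1-/-, so the controls carried 1 functional copy of each gene and the iPCKO pericytes were designed to carry none. The labels do not say whether the mice of a group came from separate litters, so p-values measure the spread between these samples.

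PDGF ligands are secreted as dimers and signal through receptor tyrosine kinases at the surface of mesenchymal cells. PDGF-A and PDGF-C bind mainly PDGFRα, PDGF-D binds PDGFRβ, and PDGF-B binds both. In developing vessels endothelial PDGF-B recruits pericytes that carry PDGFRβ, whereas epithelial PDGF-A acts on the PDGFRα-positive precursors of alveolar myofibroblasts. Yap1 and Wwtr1 (which encodes TAZ) are transcriptional co-activators that bind DNA through TEAD factors.

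No member of the family passed the thresholds between iPCKO and control samples. A gene passed where limma on log2(RPKM + 0.1) gave it an adjusted p under 0.01 together with a log2 fold change of more than 0.5 in either direction, RPKM being the number of reads scaled to exon length and library depth. Of the 12034 genes with at least 1 RPKM in at least 3 samples, 817 passed, which is 6.79% of them. Split by direction, 4.11% of all tested genes passed as higher and 2.68% passed as lower in iPCKO samples. The 6 members in that set (all except Pdgfc) gave 0 calls, and 2 of them, Pdgfa and Pdgfd, had an unadjusted p below 0.05 in limma. Of 75 tested genes of the PDGF pathway, described below, 29 had one, and the share over all tested genes was not taken. The median log2 fold change of the 6 members was -0.12, beside 0.0 over all tested genes. Both Pdgfd, which was lower in every iPCKO sample, and Pdgfc, which was higher in every iPCKO sample at a low level, had groups that did not overlap. So did many other genes: 17.1% of the tested genes were lower in all 3 iPCKO samples than in all 3 controls, and 15.5% of the genes under the filter with a value above 0 in every sample were higher.

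Some features of the libraries bear on these values. Depth, read from the steps that single reads leave in low RPKM values, was 17.44 to 34.69 M reads in controls and 14.26 to 39.64 M in iPCKO samples. The targeted gene Yap1 fell from 12.4 ± 0.859 to 5.61 ± 0.314 RPKM (SD, n = 3 each; adjusted p = 0.000175, limma). Wwtr1 was at 60.4 ± 9.48 and 62.0 ± 1.63 RPKM (adjusted p = 0.822), in values that cover the whole gene and not the deleted exons alone. Y-linked transcripts were present in controls 1 and 3 (Ddx3y at 17.2 and 19.7 RPKM) and near 0 in control 2 and the 3 iPCKO samples, so male mice were found among the controls only. Neutrophil markers summed to 87.1 to 129 RPKM in controls and 449 to 4949 RPKM in iPCKO samples, with 6 of 10 called higher. Platelet markers summed to 9.93 to 12.1 RPKM in controls and 32.6 to 89.2 RPKM in iPCKO samples, with 6 of 7 tested markers called higher. Of these calls, Mmp9 (neutrophil), Gp9 and Treml1 (both platelet) were below 1 RPKM in every control. These genes met the level filter through the iPCKO samples alone. All 14 pericyte markers (Pdgfrb was not on this list) were above the level filter, among them Postn and Gucy1a1 as the most abundant.

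The levels of the members spanned a wide range in each sample. RPKM is a length-scaled unit, which allows levels to be set side by side between genes. In both groups the order from high to low was Pdgfrb, Pdgfra, Pdgfa, Pdgfb, Pdgfrl, Pdgfd and Pdgfc, and the ranges of neighbours in this order did not overlap within either group. The narrowest step was from Pdgfb to Pdgfrl, at 1.37-fold in controls and 1.35-fold in iPCKO samples. The widest was from Pdgfrb to Pdgfra, at 42.6-fold and 34.0-fold. The plot of the 7 members by sample shows this order together with the small distance between the groups.

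**Figure D1:**
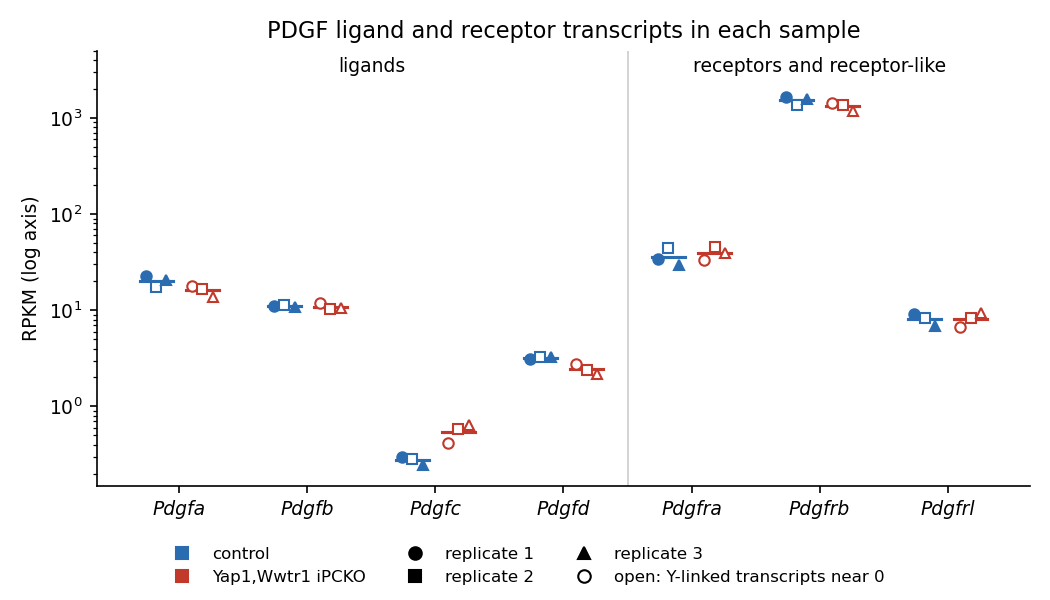
RPKM of each PDGF member (log axis) in the 3 control (blue) and 3 Yap1,Wwtr1 iPCKO (red) samples, with a horizontal bar at each group mean, a shape for each replicate and open symbols where Y-linked transcripts were near 0. Pdgfrb lies at 1193 to 1666 RPKM, far above the rest, and only Pdgfc and Pdgfd show groups that do not overlap.

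Pdgfrb encodes PDGFRβ, the receptor through which PDGF-B recruits and keeps pericytes (ENSMUSG00000024620). It was at 1666, 1369 and 1565 RPKM in controls 1, 2 and 3 and at 1447, 1370 and 1193 RPKM in iPCKO samples 1, 2 and 3. The groups overlapped, since control 2 lay below iPCKO samples 1 and 2. The means were 1533 ± 151 and 1337 ± 131 RPKM (SD, n = 3 each). The log2 fold change was -0.20 (SE 0.16, 95% confidence interval -0.57 to 0.17; adjusted p = 0.463, limma), so a change between 0.674-fold and 1.13-fold remained within the interval. In the controls only 2 of the 21603 genes had a higher mean RPKM. The Cre that tags these ribosomes is driven by a Pdgfrb transgene, so a high Pdgfrb level belongs to how the cells were selected and is given as a description. Both groups carry this transgene, and whether its transcripts count toward Pdgfrb was not tested.

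The pericyte markers beside Pdgfrb did not move as a block. Their sum was 4843 to 5688 RPKM in controls and 4555 to 5418 RPKM in iPCKO samples, ranges that overlapped. Of the 14 genes, 6 passed the thresholds, 3 higher (Cspg4, Kcnj8 and Abcc9) and 3 lower (Rgs5, Notch3 and Mcam). Together these are 42.9% of the list, beside 6.79% of all tested genes, so many of the markers changed in 1 direction or the other. In bulk RNA of this kind, fewer cells of a type and less RNA per cell cannot be told apart.

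Pdgfra encodes PDGFRα, the receptor of lung fibroblasts and alveolar myofibroblasts (ENSMUSG00000029231, GRCm38, chromosome 5, 75152292 to 75198215, plus strand). It was at 34.0, 44.1 and 29.8 RPKM in the controls and at 33.1, 45.8 and 39.0 RPKM in the iPCKO samples. The groups overlapped over most of their range, and the highest sample of each group was its replicate 2. The means were 36.0 ± 7.38 and 39.3 ± 6.4 RPKM, with a log2 fold change of 0.13 (SE 0.16, 95% confidence interval -0.24 to 0.51; adjusted p = 0.635, limma). With the level of Y-linked transcripts as a covariate the estimate turned to -0.18 (SE 0.19). Control 2 had the highest Pdgfra among the controls (44.1 against 29.8 to 34.0 RPKM) and the lowest Pdgfrb (1369 against 1565 to 1666 RPKM).

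The ratio of the pericyte receptor to the myofibroblast receptor was taken within each sample. Pdgfrb exceeded Pdgfra by 49.0, 31.0 and 52.6 times in the controls and by 43.8, 29.9 and 30.6 times in the iPCKO samples. Controls 1 and 3 had the highest ratios, whereas control 2 lay with iPCKO samples 2 and 3. On the log2 scale the ratio was 5.42 ± 0.412 in controls and 5.09 ± 0.308 in iPCKO samples (SD, n = 3 each). The difference of -0.33 gave p = 0.2 in a two-sided exact permutation test, which cannot go below 0.1 in this design. The 2 controls with Y-linked transcripts are those with the highest ratios. With the level of these transcripts as a covariate, a setting chosen after the data were seen, the difference in the log2 ratio turned to 0.14.

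**Figure D2:**
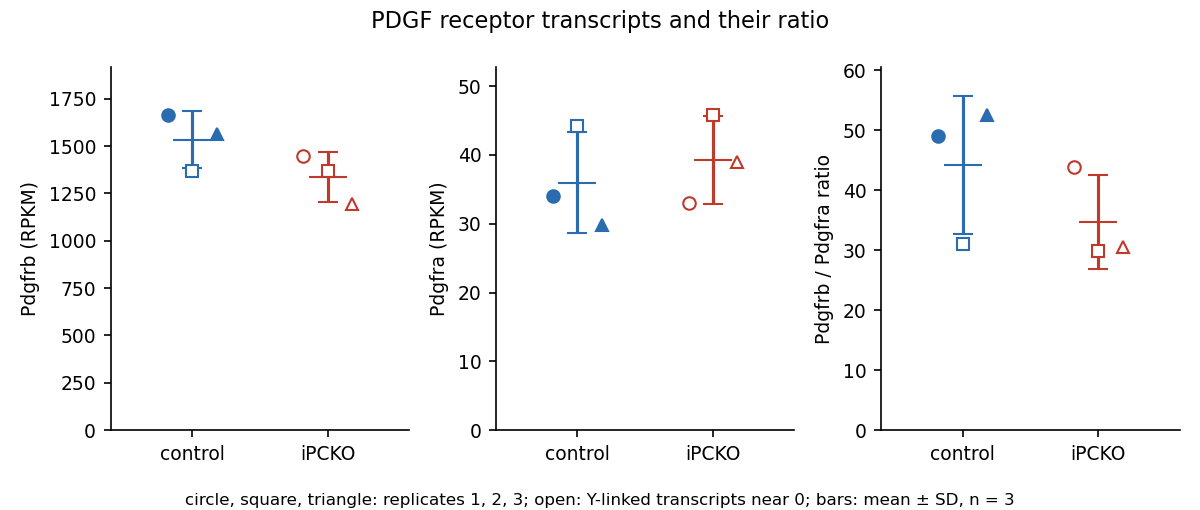
Pdgfrb (left, RPKM), Pdgfra (middle, RPKM) and their ratio (right) in control (blue) and iPCKO (red) samples, with mean ± SD (n = 3) and open symbols where Y-linked transcripts were near 0. Control 2, at 1369 RPKM for Pdgfrb and 44.1 RPKM for Pdgfra, has a ratio of 31.0 and lies among the iPCKO samples in the right panel.

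Among the markers of fibroblasts and myofibroblasts, the cells in which PDGFRα acts, 4 of 15 passed the thresholds. This is 26.7% of them, beside 6.79% of all tested genes. The 15 markers summed to 697 to 878 RPKM in controls and 952 to 1193 RPKM in iPCKO samples. Of the 4 that passed, 3 were higher (Aspn, Enpp2 and Limch1) and Npnt was lower, and the median log2 fold change of the list was -0.03. Tgfbi, the most abundant, was at 315 ± 72.2 and 460 ± 72.7 RPKM (adjusted p = 0.0937). Aspn, which encodes an extracellular matrix protein, rose from 114 ± 7.01 to 217 ± 32.3 RPKM (adjusted p = 0.00196), and these 2 genes held most of the difference between the sums.

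Pdgfrl encodes a secreted protein that resembles the ligand-binding part of the PDGF receptors and lacks a kinase domain (ENSMUSG00000031595, GRCm38, chromosome 8, 40926212 to 40990785, plus strand). It was at 9.09, 8.26 and 6.94 RPKM in the controls and at 6.74, 8.26 and 9.27 RPKM in the iPCKO samples. The ranges of both groups were nearly the same. The log2 fold change was -0.004 (SE 0.14, 95% confidence interval -0.33 to 0.32; adjusted p = 0.989, limma), which leaves changes of up to 1.25-fold within the interval.

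The profiles most like those of the receptors across samples were found by Pearson's r on log2 levels over the 6 samples, as a description that mixes differences between groups with those within them. The gene closest to Pdgfrb among all tested genes was another member, Pdgfa, with r = 0.995, followed by Desi2, Natd1, Dctn5 and Cdkn1b (0.994 to 0.987). Both Pdgfrb and Pdgfa were highest in controls 1 and 3, the controls with Y-linked transcripts, and lowest in iPCKO sample 3. These r values are the highest among 12034 tested genes on 6 points, so they do not show shared regulation. For Pdgfra the closest were Syt11, Adgrg2, Npy1r, Lair1 and Cdh11 (0.963 to 0.939). Among the fibroblast and myofibroblast markers, Lum (r = 0.879) and Dcn (r = 0.794), both matrix proteoglycans of fibroblasts, followed Pdgfra most closely, while 5 of the 15 had a negative r, down to -0.625 for Wnt2. The points share their library and its depth.

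Pdgfa encodes PDGF-A, the ligand of PDGFRα (ENSMUSG00000025856, GRCm38, chromosome 5, 138976014 to 138997370, minus strand). It was at 22.6, 17.3 and 20.6 RPKM in the controls and at 17.8, 16.8 and 13.6 RPKM in the iPCKO samples. The groups met at control 2, which lay below iPCKO sample 1. The means were 20.2 ± 2.64 and 16.1 ± 2.2 RPKM, a log2 fold change of -0.33 (SE 0.13, 95% confidence interval -0.63 to -0.02). The unadjusted p was 0.0384 and the adjusted p was 0.143 in limma, so the difference did not pass the thresholds. With Y-linked transcripts as a covariate the estimate was -0.12 (SE 0.17).

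Pdgfb encodes PDGF-B, the endothelial ligand of pericyte recruitment, which platelets also store (ENSMUSG00000000489, GRCm38, chromosome 15, 79995874 to 80014977, minus strand). It was at 11.1, 11.3 and 10.9 RPKM in the controls and at 11.83, 10.32 and 10.50 RPKM in the iPCKO samples. All 6 values lay within a narrow band, and the iPCKO samples held both its highest and its lowest value. The log2 fold change was -0.03 (SE 0.09, 95% confidence interval -0.23 to 0.17; adjusted p = 0.843, limma), an interval of 0.852-fold to 1.12-fold. The markers of its main source cell were present in this RNA: the 10 endothelial markers summed to 270 to 283 RPKM in controls and 252 to 268 RPKM in iPCKO samples, with Tmem100 and Egfl7 as the most abundant and Kdr as the only one to pass the thresholds (higher). The summed platelet markers were higher in all 3 iPCKO samples (Gp1bb did not pass the thresholds), and Pdgfb overlapped between the groups. How much endothelial or platelet RNA adds to the Pdgfb values was not tested.

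Pdgfd encodes PDGF-D, a ligand of PDGFRβ (ENSMUSG00000032006, GRCm38, chromosome 9, 6168584 to 6378850, plus strand). It was at 3.09, 3.29 and 3.27 RPKM in the controls and at 2.74, 2.41 and 2.18 RPKM in the iPCKO samples. These values stood on about 98 to 358 reads a sample as implied by the depth. The implied reads lay up to 0.329 from a whole number, so they are approximate. Every iPCKO sample was below every control, including control 2. The means were 3.22 ± 0.11 and 2.44 ± 0.281 RPKM, a log2 fold change of -0.39 (SE 0.12, 95% confidence interval -0.67 to -0.11). In limma the unadjusted p was 0.0121 and the adjusted p was 0.0686, so Pdgfd stayed outside the thresholds. An exact permutation test on 3 against 3 gives its smallest p of 0.1 for any gene whose groups do not overlap, as they did in 17.1% of the tested genes in this direction. With Y-linked transcripts as a covariate the estimate was -0.42 (SE 0.19), close to the value without it.

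Pdgfc encodes PDGF-C, a ligand of PDGFRα (ENSMUSG00000028019, GRCm38, chromosome 3, 81036416 to 81214040, plus strand). It was at 0.299, 0.282 and 0.244 RPKM in the controls and at 0.418, 0.585 and 0.634 RPKM in the iPCKO samples, below the level filter in all 6 samples. Every iPCKO sample was above every control. The means were 0.275 ± 0.0284 and 0.546 ± 0.113 RPKM, a ratio of 1.99, with p = 0.1 in a two-sided exact permutation test, the smallest it can give. Among the 3342 genes under the filter with a value above 0 in every sample, 15.5% likewise had all iPCKO samples above all controls.

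The reads behind Pdgfc could be recovered, because its RPKM times its exonic length and the implied depth fell within 0.006 of a whole number in every sample. They were 30, 25 and 43 reads in the controls and 45, 118 and 46 reads in the iPCKO samples. Pooled, this is 98 reads in 71.84 M against 209 in 75.06 M, a rate ratio of 2.04 with an exact 95% interval of 1.6 to 2.62 that covers counting error only. Fitted with no filter on low values, Pdgfc had a log2 fold change of 0.77 (SE 0.17; adjusted p = 0.0875, limma), which understates a low gene through the pseudocount of 0.1. In that fit 0.44% of all 21603 genes passed the thresholds, and Pdgfc was not among them.

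The upstream sequences of Pdgfc and Pdgfd, the ligands whose groups did not overlap, are shown although neither passed the thresholds, because the deleted genes act through TEAD factors, whose core motif can be read from them. The motif searched was GGAATG, with CATTCC for the other strand. Both sequences are the 250 bases before the RefSeq start on GRCm38.p6, plus strand, in lower case with the motif in capitals, for Pdgfc at chr3:81036166-81036415 and for Pdgfd at chr9:6168236-6168485.
Pdgfc: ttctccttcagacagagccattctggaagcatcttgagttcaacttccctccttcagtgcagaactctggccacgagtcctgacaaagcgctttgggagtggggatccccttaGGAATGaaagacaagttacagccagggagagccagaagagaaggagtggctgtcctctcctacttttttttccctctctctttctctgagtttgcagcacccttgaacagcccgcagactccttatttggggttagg
Pdgfd: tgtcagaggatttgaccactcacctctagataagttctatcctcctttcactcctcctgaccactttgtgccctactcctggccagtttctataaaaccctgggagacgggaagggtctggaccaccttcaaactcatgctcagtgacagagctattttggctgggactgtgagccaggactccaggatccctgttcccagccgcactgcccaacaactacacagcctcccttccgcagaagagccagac
The Pdgfc sequence held 1 match, which begins 137 bases before the start, and the Pdgfd sequence held none. The promoter table, with windows of 300 bases, matched 4 of the 7 members (Pdgfa, Pdgfc, Pdgfd and Pdgfra) in 5 windows, and only the Pdgfc window held the motif. Over all 32851 windows 4817 held it, or 14.7%, so a match is a description of these letters and not of binding.

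The ligands can be set beside the markers of other cell types in the same samples. Epithelial markers are of the cells that make PDGF-A in the developing lung. They summed to 642 to 739 RPKM in controls and 925 to 968 RPKM in iPCKO samples, with Sftpc and Scgb1a1 the most abundant. Of the 12 markers 2 passed the thresholds, both higher, or 16.7%, beside 4.11% of all tested genes. The mean of Pdgfa was 16.1 RPKM in iPCKO samples and 20.2 RPKM in controls. Macrophage markers, led by Csf1r and Cd68, summed to 16.4 to 25.8 RPKM and to 29.98 to 55.97 RPKM. Of their 8 tested markers 1, Marco, passed the thresholds (higher), or 12.5%, beside 4.11% of all tested genes. The log2 fold changes of the 8 ran from 0.576 to 1.68. Marco was below 1 RPKM in all controls and met the level filter through the iPCKO samples alone. No listed marker of these types was at 0 in any sample. Among the iPCKO samples, sample 1 was nearest to the controls in the neutrophil sum (449 RPKM, against 1989 and 4949), in the platelet sum (32.6 RPKM, against 58.7 and 89.2), in Pdgfc and in Pdgfd. The part of all these cells in the values of the 4 ligands was not tested.

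**Figure D3:**
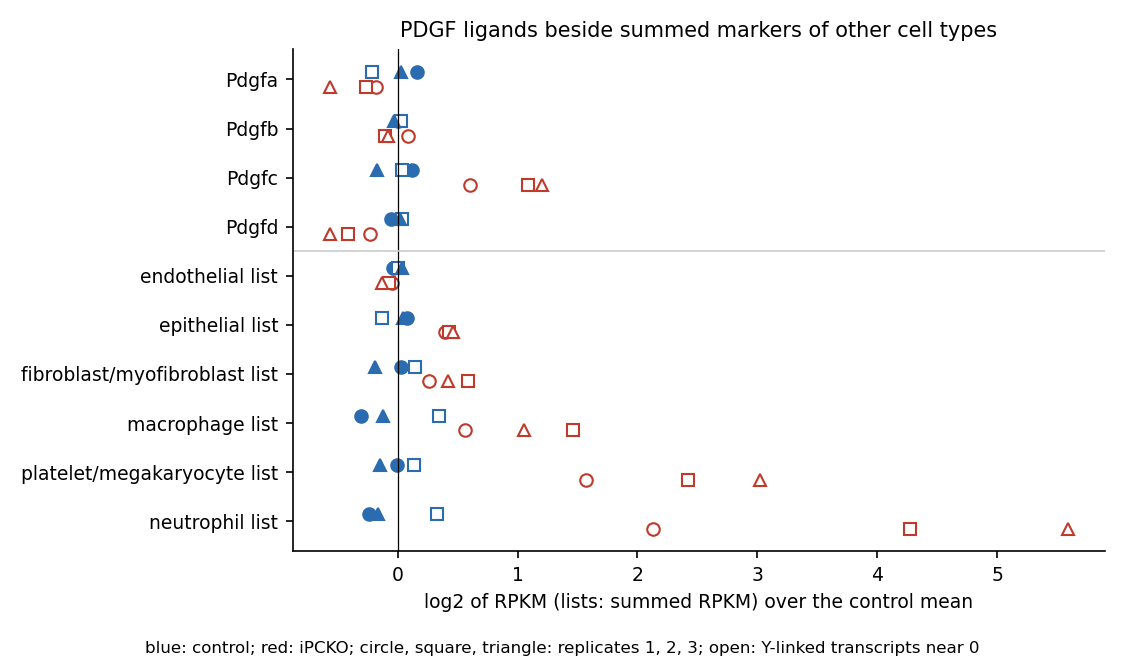
Log2 of each sample's level over the control mean, for the 4 ligands (RPKM) and for summed markers of 6 other cell types, with control in blue, iPCKO in red, a shape for each replicate and open symbols where Y-linked transcripts were near 0. Pdgfc lies to the right and Pdgfd to the left of all controls, Pdgfb does not separate, and the neutrophil and platelet sums move furthest.

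Set among all tested genes, the members were measured with a precision close to that of other genes. Their standard errors ran from 0.09 for Pdgfb to 0.16 for Pdgfra on the log2 scale, beside a median of 0.12 over all tested genes. Of the 6 tested members 5 had an estimate below 0 and Pdgfra had one above.

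**Figure D4:**
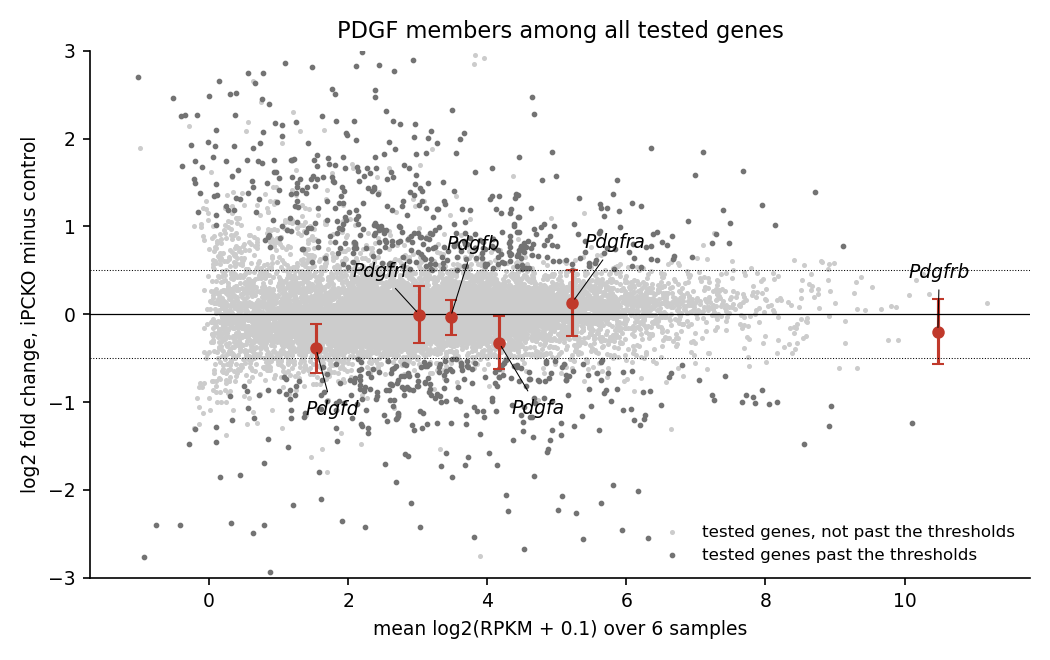
Log2 fold change (iPCKO minus control) against mean log2(RPKM + 0.1) for 12034 tested genes, with genes past the thresholds in dark grey, 45 genes beyond the vertical axis left out, and the 6 tested PDGF members in red with 95% confidence intervals. Each member lies between the dotted lines at a log2 fold change of 0.5 in either direction.

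The genes that process, bind and relay PDGF signals were taken from a list of 77, of which 75 were tested. Of these 8 passed the thresholds, 7 higher and 1 lower, or 10.7% beside 6.79% of all tested genes, with a median log2 fold change of -0.02. Of the calls, Egr3 and Fosb met the level filter through the iPCKO samples alone, and over genes at 1 RPKM or more in all 6 samples 6 of 72 passed, or 8.33% beside 6.16% of the 11389 genes tested there. The calls sat with proteases, a surface partner, a phosphatase and early response genes, and none was a signal transducer. With Y-linked transcripts as a covariate 1 of the 8 calls was left, Pcsk6, with all 8 in the same direction. The count was 5 without control 2 or control 3 and 4 without iPCKO sample 2.

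Of the 7 ligand processing genes 2 passed the thresholds, 1 lower and 1 higher, or 28.6% beside 6.79% of all tested genes. Pcsk6 encodes a proprotein convertase of the family that cleaves PDGF-A and PDGF-B (ENSMUSG00000030513). It was at 6.54, 4.83 and 5.17 RPKM in the controls and at 1.68, 1.54 and 1.31 RPKM in the iPCKO samples, well apart. It fell by 1.80 on the log2 scale (SE 0.15; adjusted p = 0.000186). Furin, the best known convertase of this family, was at 17.4 ± 4.58 and 24.7 ± 0.181 RPKM (log2 fold change 0.53, adjusted p = 0.0577).

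Plat encodes tissue plasminogen activator, which removes the CUB domain of PDGF-C and so activates it (ENSMUSG00000031538). It was at 75.2, 83.6 and 85.9 RPKM in the controls and at 119.9, 137.7 and 121.1 RPKM in the iPCKO samples, with no overlap. It rose by 0.63 on the log2 scale (SE 0.10; adjusted p = 0.00424). Plau and St14, proteases that act on PDGF-D, were at low levels in both groups, at 1.16 ± 0.255 and 1.35 ± 0.385 RPKM for Plau and at 1.47 ± 0.221 and 1.54 ± 0.0836 RPKM for St14 (adjusted p = 0.621 and 0.806).

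Among the 4 surface partners, Cspg4 encodes NG2, a pericyte proteoglycan that binds PDGF-A and is also on the pericyte marker list (ENSMUSG00000032911). It was at 77.1, 80.8 and 87.5 RPKM in the controls and at 172, 182 and 158 RPKM in the iPCKO samples. Every iPCKO sample was far above the controls, and the log2 fold change was 1.06 (SE 0.10; adjusted p = 0.00033). Sparc, a matrix protein that binds PDGF-B and the most abundant of the list, was at 1059 ± 21.6 and 869 ± 80.0 RPKM (adjusted p = 0.203). Nrp1, a co-receptor for PDGF ligands, was at 79.8 ± 4.11 and 59.9 ± 3.41 RPKM and missed the thresholds (log2 fold change -0.41, adjusted p = 0.0169).

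None of the 36 signal transducers passed the thresholds in limma, beside 6.79% of all tested genes. An unadjusted p below 0.05 was found for 8 of the 36, beside 29 of the 75 tested pathway genes. The log2 fold changes of the 36 ran from -0.40 for Nck1 to 0.47 for Stat3, with a median of -0.03. The most abundant was the adaptor Nck2, at 97.1 ± 25.7 and 110.6 ± 24.0 RPKM. Of the 17 negative regulators 1, Dusp5, passed, or 5.88% beside 6.79% of all tested genes. Dusp5 encodes a nuclear phosphatase of ERK and is itself induced by ERK signalling (ENSMUSG00000034765). It was at 29.4, 22.4 and 23.8 RPKM in the controls and at 77.2, 58.4 and 55.4 RPKM in the iPCKO samples, a log2 fold change of 1.33 (SE 0.15; adjusted p = 0.000762).

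The early response genes, which growth factors including PDGF induce within minutes, held the other 4 calls. Of 13 listed, 11 were tested and 4 passed the thresholds, all higher, or 36.4% beside 4.11% of all tested genes. The log2 fold changes of the 11 ran from -0.124 to 2.097, with a median of 0.71. Egr3, a zinc finger transcription factor, was at 0.215, 0.486 and 0.651 RPKM in the controls and at 2.47, 2.03 and 1.88 RPKM in the iPCKO samples (log2 fold change 2.10, SE 0.31; adjusted p = 0.00295). Junb, a subunit of AP-1, was at 12.99, 16.42 and 14.88 RPKM and at 28.6, 34.1 and 26.5 RPKM (log2 fold change 1.0, SE 0.12; adjusted p = 0.00117). Both were higher in every iPCKO sample than in any control. Egr3 and Fosb were below 1 RPKM in all controls. Of the 9 genes of the list at 1 RPKM or more in all 6 samples, 2 were called, beside 6.16% of all genes at that level. The median log2 fold change of the 9 was 0.46.

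Fosb, another AP-1 subunit, rose by 1.49 (SE 0.28; adjusted p = 0.00871) and Ier2 by 0.71 (SE 0.13; adjusted p = 0.00703) on the log2 scale. Fos was at 2.89, 12.9 and 9.93 RPKM in the controls and at 20.5, 22.2 and 14.0 RPKM in the iPCKO samples, and Jun at 46.5 ± 9.11 and 42.3 ± 5.06 RPKM. Neither passed the thresholds (adjusted p = 0.0937 for Fos and 0.649 for Jun), and control 1 stood below the other controls in Fos. These genes are induced by many stimuli and are not particular to PDGF receptors.

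**Figure D5:**
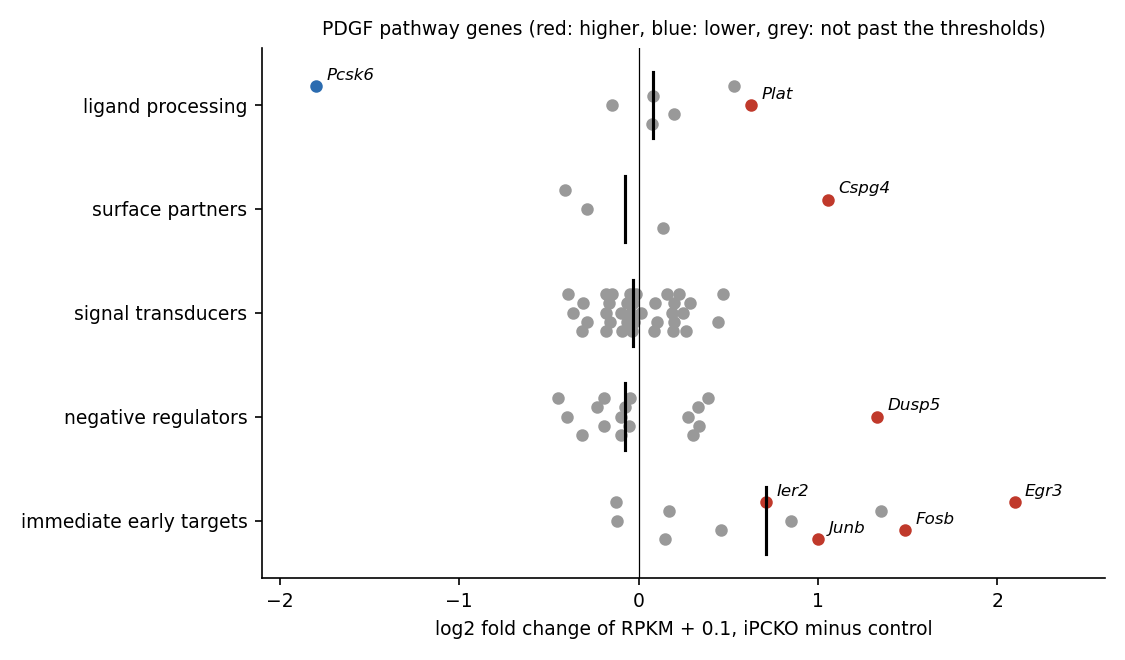
Log2 fold change of the 75 tested PDGF pathway genes by list, 1 point a gene, with genes past the thresholds named (red higher, blue lower) and a vertical bar at each list's median. The 36 signal transducers lie between -0.40 and 0.47 and hold no call, and the early response list has a median of 0.71, or 0.46 over its 9 genes at 1 RPKM or more in all samples.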

How the data were processed

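Ribosome-bound RNA (anti-HA immunoprecipitates of RPL22-HA) was sequenced in 3 control and 3 iPCKO lungs. The authors made stranded total RNA libraries, used TopHat to align the read pairs to the mm10 assembly (GRCm38), summed reads over genes by HTSeq (version 0.6.1, per the submitters' processing notes) and deposited RPKM values for 21603 genes a sample. The gene annotation release behind the exon lengths is not given in the sources used here. RPKM divides by depth and length, so the reads behind a value no longer show, and depth was recovered from genes with 1 annotated transcript, where 75.0% to 76.8% of values at 10 reads or fewer lay within 0.02 of a whole read. Counting intervals cover counting error only.

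Symbols and coordinates came from GENCODE on GRCm38, and promoters from RefSeq on GRCm38.p6. Genes that reached 1 RPKM in 3 or more samples were tested as log2(RPKM + 0.1) with limma 3.58.1 in R 4.3.3 (intensity trend, Benjamini-Hochberg over 12034 genes, no block, no further scaling). Fold changes are iPCKO minus control and understate low genes. The code was tested on simulated data. Single values used exact permutation tests in scipy 1.17.1. Named genes were the members, the deleted genes, pathway genes past the thresholds, the most abundant gene of pathway lists with fewer than 2 of these, the 2 most abundant of each marker list, and the 5 genes most like each receptor. Not every gene under this rule is reported here. Furin, Plau, St14, Nrp1, Nck1, Stat3, Fos, Jun and further markers were chosen for mention after their values were seen. The members and gene lists were chosen with earlier results of these data known.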

Additional observations from a re-analysis of the deposited data

How the results depend on the processing

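No tested member passed the thresholds in limma under any of the 18 alternatives. Those that changed only a threshold could not add a call, since every main estimate of a member was below 0.5 in size. The estimates of Pdgfa (-0.43 to -0.12), Pdgfd (-0.47 to -0.30) and Pdgfrb (-0.28 to -0.04) stayed below 0. The adjusted p of Pdgfd in limma ran from 0.00396 with sample weights to 0.33 with Y-linked transcripts as a covariate. With sample weights only its log2 fold change of -0.423 kept it from a call. Estimates near 0 turned: Pdgfra was -0.183 with that covariate, Pdgfrl was 0.115 with sample weights and -0.109 to 0.12 with 1 sample left out, and Pdgfb was -0.093 to 0.004 with 1 sample left out. The receptor log2 ratio difference ran from -0.568 without control 2 to -0.188 without control 3, and was 0.144 with the Y-linked covariate, added after seeing the data.

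Over all genes, 817 calls became 95 with no filter on low values, 1590 with sample weights, 119 with Y-linked transcripts as a covariate, 1313 at an adjusted p below 0.05 and 411 at a log2 fold change above 1. Leaving out 1 sample gave 382 (without control 3) to 899, and 414 without iPCKO sample 2 and 499 without iPCKO sample 3. Of 8 pathway calls, 0 remained with no filter on low values (29 with an unadjusted p below 0.05), 1 with the Y-linked covariate, and 4 to 6 with 1 sample left out, where 4 to 7 pathway genes passed in all. Plat, Fosb and Ier2 each lost their call in 9 alternatives, in the same direction, and the causes were not tested.

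A block on replicate number gave 922 calls over all genes, 0 members, 7 pathway genes and a receptor ratio difference of -0.332. Same-numbered samples correlated in their deviations at r = 0.238, 0.092 and 0.022, and the other pairs at -0.298 to 0.273. With 3 samples a group these values cannot tell whether same-numbered samples shared a litter or batch. Pdgfc rests on 25 to 118 reads a sample. With no mouse that expressed Y-linked transcripts in the iPCKO group, sex and genotype cannot be told apart in controls 1 and 3.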
